A study of Mus musculus with 45 samples.

Results

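The short transcripts described here are the annotated mouse transcripts that span at least 5 kb and under 20 kb of the genome from start to end. They were chosen by length alone, and there were 34786 of them among the 122968 transcripts (28.3%) for which a transcription wave-front was sought. By identifier, 34535 matched the GENCODE M21 annotation of GRCm38, where they belong to 15917 genes. Of these genes, 8075 contributed 1 transcript and the most any gene contributed was 26, so that many short transcripts share bases and are not independent of each other. All comparisons between genotypes and times were therefore made over samples.

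The samples are mouse embryonic stem cells (ESCs) that carry the slow R749H mutation of Polr2a, the largest subunit of RNA polymerase II (RNAPII), on no allele (WT/WT), 1 allele (WT/slow) or both alleles (slow/slow). Elongation was halted in all of them with DRB for 4 h, DRB was washed out, and cells were harvested 5, 15 or 30 min later, with 4-thiouridine (4sU) in the medium before harvest so that new RNA could be purified and sequenced. Each of the 9 groups has 3 biological replicates, which gives 27 samples, and 18 further samples that were harvested at 0 min or without DRB were not analysed here. The cells are E14 ESCs that were seeded in 2i medium for these experiments. WT/slow cells were made by electroporation of a targeting vector and slow/slow cells by targeting the other allele of WT/slow cells, and the sources used here name no second clone of any genotype, so a genotype and the line that carries it cannot be told apart.

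DRB inhibits the kinase of P-TEFb, which RNAPII needs to leave the region near the promoter and enter productive elongation. When DRB is removed, the waiting polymerases enter the gene body together, and the far edge of the new RNA marks how far the leading polymerases have come. In a short gene the leading polymerases have little distance to cover, and once they have passed the transcript end the annotated span holds no moving edge.

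The measured value is the boundary, the distance in bases from the transcript start to the called edge of the wave, in steps of 100 bases, or no call. A single value, 2.5 kb, made up most of the boundaries of short transcripts, and the steps on either side of it were rare. The genomic positions of some boundaries are shown first, since the results turn on whether a boundary lay at 2.5 kb or farther inside. Each sequence is read 5′ to 3′ on the strand of the transcript from GRCm38, and capitals mark the 100-base step that ends at the median boundary of 3 replicates, with 50 bases on each side in lower case.

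Ctr9, which encodes a subunit of the PAF1 elongation complex, is shown because its median boundary of 3 replicates lay far inside at 5 min in both genotypes, with 1 WT/WT replicate at 2.5 kb, and at 2.5 kb in both at 15 min. The transcript (ENSMUST00000152019, 18.7 kb, plus strand) is annotated as a retained intron form. Its median WT/WT boundary at 5 min lay at 15.2 kb in intron 12, chr7:111044045-111044244. In slow/slow cells at 5 min the median lay at 12.1 kb in intron 7, chr7:111040945-111041144. At 15 min it lay at 2.5 kb in intron 2, chr7:111031345-111031544.
Ctr9 at 5 min in WT/WT: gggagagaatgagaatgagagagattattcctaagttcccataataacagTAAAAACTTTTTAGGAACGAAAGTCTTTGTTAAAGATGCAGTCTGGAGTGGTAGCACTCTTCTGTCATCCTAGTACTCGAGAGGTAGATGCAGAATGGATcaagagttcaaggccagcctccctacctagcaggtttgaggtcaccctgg
Ctr9 at 5 min in slow/slow: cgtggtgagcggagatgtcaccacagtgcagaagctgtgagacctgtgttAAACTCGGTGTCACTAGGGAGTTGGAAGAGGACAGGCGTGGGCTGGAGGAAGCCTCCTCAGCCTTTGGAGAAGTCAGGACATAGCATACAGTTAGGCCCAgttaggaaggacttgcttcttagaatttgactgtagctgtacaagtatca
Ctr9 at 15 min in both: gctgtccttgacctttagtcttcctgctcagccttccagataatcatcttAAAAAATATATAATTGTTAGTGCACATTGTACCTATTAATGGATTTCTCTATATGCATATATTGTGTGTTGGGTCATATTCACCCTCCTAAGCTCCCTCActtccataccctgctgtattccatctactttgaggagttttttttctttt

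Crebl2, a bZIP protein related to CREB, and Kdm3a, a demethylase of histone H3 lysine 9, are shown because their slow/slow boundary lay far inside at 15 min. The Crebl2 transcript (ENSMUST00000145643, plus strand) had its 15 min boundary at 2.5 kb in WT/WT and 13.3 kb in slow/slow cells, both in intron 1, at chr6:134832578-134832777 and chr6:134843378-134843577. The Kdm3a transcript (ENSMUST00000206704, minus strand) had it at 3.2 kb in intron 3 in WT/WT and at 13.1 kb in intron 5 in slow/slow cells, at chr6:71618425-71618624 and chr6:71608525-71608724.
Crebl2 at 15 min in WT/WT: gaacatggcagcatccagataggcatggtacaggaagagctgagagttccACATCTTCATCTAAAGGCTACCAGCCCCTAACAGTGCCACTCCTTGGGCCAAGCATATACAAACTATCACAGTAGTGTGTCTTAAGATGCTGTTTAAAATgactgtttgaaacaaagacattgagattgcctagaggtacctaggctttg
Crebl2 at 15 min in slow/slow: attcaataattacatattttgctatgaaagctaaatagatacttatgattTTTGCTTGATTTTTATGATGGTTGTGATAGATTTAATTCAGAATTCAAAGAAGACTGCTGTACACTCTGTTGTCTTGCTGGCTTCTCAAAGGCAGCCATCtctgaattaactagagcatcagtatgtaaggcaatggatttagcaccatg
Kdm3a at 15 min in WT/WT: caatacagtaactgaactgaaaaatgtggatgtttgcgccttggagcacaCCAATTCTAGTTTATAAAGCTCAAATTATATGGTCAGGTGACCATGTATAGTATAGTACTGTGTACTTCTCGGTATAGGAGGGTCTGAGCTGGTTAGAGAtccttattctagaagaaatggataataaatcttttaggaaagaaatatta
Kdm3a at 15 min in slow/slow: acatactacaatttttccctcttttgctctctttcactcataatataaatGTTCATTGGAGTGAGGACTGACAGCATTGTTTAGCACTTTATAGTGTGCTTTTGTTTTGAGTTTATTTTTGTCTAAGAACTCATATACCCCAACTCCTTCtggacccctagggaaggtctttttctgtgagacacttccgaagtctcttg

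Cutal is shown for the opposite order. Its transcript (ENSMUST00000113068, plus strand) had its 15 min boundary at 12.1 kb in intron 3 in WT/WT cells, chr2:34886346-34886545. In slow/slow cells it lay at 2.5 kb in intron 1, chr2:34876746-34876945.
Cutal at 15 min in WT/WT: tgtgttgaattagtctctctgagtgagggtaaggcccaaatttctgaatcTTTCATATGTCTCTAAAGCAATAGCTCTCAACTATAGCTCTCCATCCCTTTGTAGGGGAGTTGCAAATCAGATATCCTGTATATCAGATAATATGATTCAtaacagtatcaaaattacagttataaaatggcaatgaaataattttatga
Cutal at 15 min in slow/slow: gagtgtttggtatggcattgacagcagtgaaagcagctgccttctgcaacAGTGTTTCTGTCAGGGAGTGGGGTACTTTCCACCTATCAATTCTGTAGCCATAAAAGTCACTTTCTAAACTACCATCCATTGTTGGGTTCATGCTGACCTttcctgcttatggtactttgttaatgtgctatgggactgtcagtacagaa

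Over the 27 samples the short transcripts had 546807 boundaries. Of these, 66.5% lay at 2.5 kb, 1.22% closer to the start and 32.3% farther inside, and the next most frequent value, 2.6 kb, held 1.12%. No boundary came closer than 309 bases to the transcript end. What a call at exactly 2.5 kb stands for is not given in the sources used here, so shares at 2.5 kb and values above it are given apart. The median distance over all boundaries and the limma fits of single transcripts take both together. A difference in kb there can be a switch to or from 2.5 kb.

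The transcripts differed widely in how often they had a boundary. A group of 7471 (21.5%) had none in any sample, 1910 (5.49%) had one in all 27 samples, and 25405 lay in between. Transcripts that never had a boundary had a median length of 8.55 kb and 71.9% belonged to protein-coding genes. Those with a boundary in all samples were longer, with a median of 15.4 kb against 9.93 kb for all short transcripts, and 90.3% belonged to protein-coding genes. By gene type, 82.2% of the 30197 transcripts of protein-coding genes had a boundary in at least 1 sample, against 71.4% of 1208 antisense and 43.2% of 1747 lincRNA transcripts.

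Read numbers are not given with the boundaries, so the depth behind each value is unknown and the spread of 3 replicates is the only measure of precision. Replicates of a group gave the same call state, boundary or none, for 71.6% to 90.4% of short transcripts. Where both had a boundary, Spearman's rho between replicates, taken across transcripts, lay from 0.191 to 0.733, and from 0.329 to 0.657 where both boundaries lay above 2.5 kb. No pair of samples held identical values. The library labelled slow/slow 30 min replicate 2 stood apart from the other 2 replicates of its group, with a boundary in 45.3% of short transcripts against 63.6% and 63.9%, and differences between slow/slow and WT/WT cells, differences between 15 and 30 min and counts at 30 min are also given without it.

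The share of transcripts with a boundary went up steeply with length at the lower limit of the range. Just outside the lower limit, in the 2494 transcripts of 4.5 to 5 kb, 11% had a boundary in WT/WT cells at 5 min, and just inside, in the 2362 of 5 to 5.5 kb, 39.3% had one. At the upper limit, in windows of the same width, the share was 69.4% for the 583 transcripts just under 20 kb and 66.4% for the 581 just over it. The shortest of all transcripts with a boundary in any sample spanned 4809 bases, so the step at the lower limit lies close to the shortest span for which a boundary was called.

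The share of short transcripts with a boundary was lowest at 5 min, and slow/slow cells had a lower one than WT/WT cells. In the WT/WT replicates it was 54.2%, 51.3% and 47.7% at 5 min, 65.2%, 66.1% and 63.3% at 15 min, and 61.5%, 67.9% and 68.2% at 30 min. In WT/slow cells it was 56.3%, 40.3% and 46.9% at 5 min, 66.0%, 65.1% and 65.6% at 15 min, and 62.8%, 66.2% and 67.2% at 30 min. The slow/slow replicates had 45.4%, 41.2% and 42.6% at 5 min, 65.2%, 60.4% and 62.2% at 15 min, and 63.6%, 45.3% and 63.9% at 30 min. At 5 min all slow/slow replicates lay below all WT/WT replicates, the WT/slow replicates spanned both, and at 15 and 30 min the genotypes overlapped.

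Averaged over the 3 times, the share fell by 6.18 percentage points from WT/WT to slow/slow cells (exact permutation test within times, two-sided, adjusted p = 0.015 over 20 tests). By time the differences were -8.01 points at 5 min, -2.27 at 15 min and -8.26 at 30 min. The value at 30 min was -2.11 points without slow/slow 30 min replicate 2, and without slow/slow 15 min replicate 1 or 2 that at 15 min was -3.58 or -1.15 points. The difference at 5 min, 43.1% ± 2.15 against 51.1% ± 3.28 (SD, n = 3), had an exact permutation p of 0.1, the smallest that 3 against 3 samples allow. Without slow/slow 30 min replicate 2 the average was -4.13 points (adjusted p = 0.0357, exact permutation), and without replicate 2 of slow/slow at every time it was -3.44 points (adjusted p = 0.12). The call was also lost without WT/WT replicate 2 (-5.60 points, adjusted p = 0.149) and without WT/WT replicate 3 (-6.62 points, adjusted p = 0.0686), and over transcripts of 10 to 20 kb (-3.82 points, adjusted p = 0.197), in exact permutation tests. With replicate numbers taken as pairs it was lost as well (paired sign-flip test, adjusted p = 0.0670).

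The difference between WT/slow and WT/WT cells did not pass. The share differed by -1.01 points on average (exact permutation, adjusted p = 0.804).

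From 5 to 15 min the share rose by 17.0 points on average over the genotypes (exact permutation within genotypes, adjusted p = 0.00125). The unadjusted p of 0.00025 is the smallest that 8000 arrangements can give. The rise was 13.8 points in WT/WT, 17.8 in WT/slow and 19.6 in slow/slow cells, and in each genotype all 15 min replicates lay above all 5 min replicates. Between 15 and 30 min the share differed by -1.39 points (exact permutation, adjusted p = 0.808), and by 0.659 points without slow/slow 30 min replicate 2. Whether the genotype difference itself changed between 5 and 15 min was tested directly and did not pass (-5.75 points, exact permutation over 400 arrangements, adjusted p = 0.5625).

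**Figure D1:**
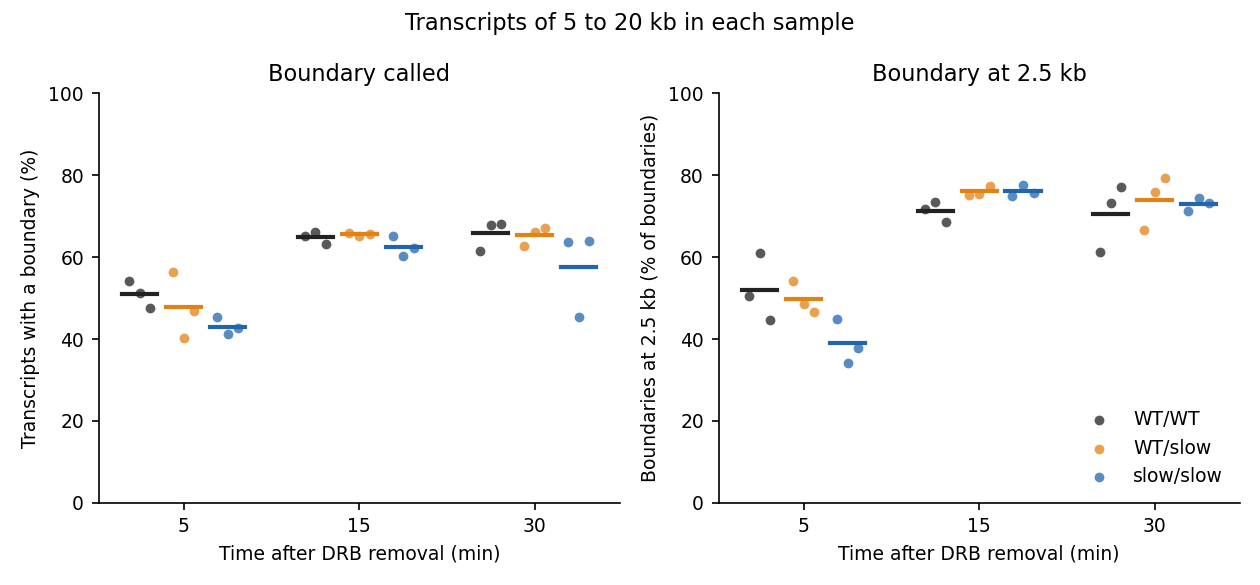
Left, the share of short transcripts with a boundary (%), and right, the share of those boundaries at 2.5 kb (%), for each genotype at 5, 15 and 30 min; points are replicates and bars the means of 3. Both shares are lowest at 5 min, where slow/slow cells have means of 43.1% and 39.0%, and the single slow/slow sample at 45.3% at 30 min stands apart from its group.

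Where a boundary was called, its place changed with time. At 5 min, 50.5%, 61.0% and 44.8% of boundaries lay at 2.5 kb in WT/WT, 54.3%, 48.5% and 46.6% in WT/slow, and 44.9%, 34.3% and 37.8% in slow/slow replicates. At 15 min the shares were 71.8%, 73.5% and 68.7% in WT/WT, 75.3%, 75.5% and 77.5% in WT/slow, and 75.0%, 77.7% and 75.6% in slow/slow replicates. At 30 min they were 61.3%, 73.2% and 77.1%, then 66.8%, 75.8% and 79.3%, then 71.3%, 74.4% and 73.3% in the same order of genotypes. The slow/slow samples thus had the lowest mean share at 5 min, with replicate ranges that touched those of WT/WT, and at 15 min lay above every WT/WT sample.

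The share at 2.5 kb rose by 27.6 points from 5 to 15 min (exact permutation, adjusted p = 0.00125), by 19.3 points in WT/WT, 26.3 in WT/slow and 37.1 in slow/slow cells. Between 15 and 30 min it differed by -2.01 points (exact permutation, adjusted p = 0.626). Averaged over times, slow/slow differed from WT/WT cells by -1.95 points (exact permutation, adjusted p = 0.803), and differences of opposite sign, -13.1 points at 5 min and 4.74 at 15 min, enter that mean. Without WT/WT 5 min replicate 2 the value at 5 min was -8.63 points. WT/slow cells differed from WT/WT cells by 1.96 points (adjusted p = 0.783, exact permutation). By time these differences were -2.29, 4.73 and 3.45 points at 5, 15 and 30 min. Without slow/slow 30 min replicate 2 the differences were -2.18 points between slow/slow and WT/WT and -2.24 points between 30 and 15 min. The change of the slow/slow difference between 5 and 15 min, -17.8 points, had an exact permutation p of 0.01 and an adjusted p of 0.1 over 10 tests, and so did not pass.

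Counted over all short transcripts, not only those with a boundary, 16.9% had one at 2.5 kb in slow/slow and 26.7% in WT/WT cells at 5 min, with no overlap of replicates (exact permutation p = 0.1, the smallest possible). The share with a boundary above 2.5 kb was 25.6% and 23.8% (exact permutation p = 0.6). By replicate the share above 2.5 kb was 24.4%, 26.5% and 25.9% in slow/slow and 26.2%, 19.4% and 25.7% in WT/WT cells. The direction of that difference rests on WT/WT replicate 2. Pooled over lengths, the lower share with any boundary in slow/slow cells at 5 min thus lay in boundaries at 2.5 kb. In transcripts of 5 to 10 kb boundaries above 2.5 kb were fewer as well, 9.51% against 12.5%, with no overlap of replicates. At 15 min it was the boundaries above 2.5 kb that were fewer, 14.2% of short transcripts in slow/slow and 17.8% in WT/WT cells (exact permutation p = 0.1, the smallest possible). WT/slow cells were close to slow/slow cells here, with 15%, and their replicates did not overlap with WT/WT either (-2.88 points, exact permutation p = 0.1).

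Distances to the transcript end were measured in each sample as a median over boundaries. In WT/WT replicates the median was 6.42, 6.26 and 5.96 kb at 5 min, 7.49, 7.58 and 7.4 kb at 15 min and 7.23, 7.60 and 7.64 kb at 30 min. In slow/slow replicates it was 5.64, 5.52 and 6.19 kb, then 7.52, 7.65 and 7.59 kb, then 7.45, 8.01 and 7.71 kb. Boundaries lay closest to the end at 5 min in both, and the genotypes overlapped at every time. WT/slow replicates lay at 6.4, 5.70 and 5.96 kb at 5 min and between 7.36 and 7.67 kb later.

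The median distance rose by 1.53 kb from 5 to 15 min (exact permutation, adjusted p = 0.00125) and differed by 0.0519 kb between 15 and 30 min (adjusted p = 0.783, exact permutation). For a boundary at 2.5 kb the distance is the transcript length less 2.5 kb. From 5 to 15 min the share at 2.5 kb rose by 27.6 points and the share of transcripts with a boundary by 17.0 points. The rise in the median compares different transcripts and is not separate from these changes. Slow/slow differed from WT/WT cells by -0.0361 kb and WT/slow by -0.0327 kb (exact permutation, adjusted p = 0.808 for both). Differences of opposite sign enter both means. At 5, 15 and 30 min they were -0.434, 0.0942 and 0.231 kb for slow/slow and -0.1955, 0.04 and 0.0575 kb for WT/slow. Without 30 min replicate 1 the difference between 15 and 30 min was 0.173 kb (exact permutation, adjusted p = 0.004). Without slow/slow 30 min replicate 2 it was 0.00406 kb, and the slow/slow difference from WT/WT was -0.0839 kb.

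The distance was also taken over boundaries above 2.5 kb alone, a set of transcripts that itself differed between genotypes. At 5 min it held 9.51% of the 5 to 10 kb transcripts in slow/slow and 12.5% in WT/WT cells, and 56.3% and 44.3% of those of 15 to 20 kb, so that the medians compare different transcripts. The median distances of these boundaries were 6.12, 5.66 and 5.55 kb at 5 min, 6.41, 6.54 and 6.60 kb at 15 min and 6.51, 6.64 and 6.36 kb at 30 min in WT/WT replicates. In slow/slow replicates they were 5.27, 4.91 and 5.68 kb, then 6.23, 6.23 and 6.26 kb, then 6.28, 6.4 and 6.43 kb. At 15 min all slow/slow samples lay below all WT/WT samples, while at 5 and 30 min the groups overlapped. WT/slow samples lay between 5.23 and 6.05 kb at 5 min and between 6.19 and 6.51 kb later.

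The median over these differing sets fell by 0.301 kb from WT/WT to slow/slow cells on average (exact permutation, adjusted p = 0.0142), with -0.491, -0.276 and -0.136 kb at 5, 15 and 30 min. The value at 5 min was -0.301 kb without slow/slow 5 min replicate 2 and -0.319 kb without WT/WT 5 min replicate 1. That at 30 min was -0.151 kb without slow/slow 30 min replicate 2, and -0.0693 and -0.207 kb without WT/WT 30 min replicate 2 and 3. It rose by 0.803 kb from 5 to 15 min (exact permutation, adjusted p = 0.00125). The genotype call was lost without slow/slow replicate 1 (-0.281 kb, adjusted p = 0.0714) or 2 (-0.241 kb, adjusted p = 0.0629), and without WT/WT replicate 1 (-0.260 kb, adjusted p = 0.0743) or 2 (-0.294 kb, adjusted p = 0.08), each by exact permutation. In transcripts with a boundary in all 27 samples it was -0.430 kb and did not pass (exact permutation, adjusted p = 0.0736), and without slow/slow 30 min replicate 2 it was -0.306 kb (exact permutation, adjusted p = 0.015). WT/slow differed from WT/WT cells by -0.137 kb (exact permutation, adjusted p = 0.466), and 30 from 15 min by 0.0723 kb (exact permutation, adjusted p = 0.4125), or 0.0673 kb without that library. With replicate numbers taken as pairs, the WT/slow difference passed (paired sign-flip test, adjusted p = 0.0293). The slow/slow difference did not pass in that test (adjusted p = 0.0558).

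Few boundaries came near the end. Within 1 kb of it lay 24, 21 and 41 boundaries in the WT/WT replicates at 5 min, 16, 12 and 7 at 15 min, and 20, 19 and 21 at 30 min. In slow/slow replicates there were 40, 13 and 31, then 23, 12 and 16, then 14, 12 and 19, and in WT/slow replicates 12, 25 and 39, then 17, 14 and 15, then 13, 12 and 15. As a share of boundaries this was 0.164% in WT/WT and 0.184% in slow/slow cells at 5 min, with overlapping replicates. The share fell by 0.104 points from 5 to 15 min (exact permutation, adjusted p = 0.008), and differed by 0.0113 points between slow/slow and WT/WT (adjusted p = 0.804), by -0.00587 points between WT/slow and WT/WT (adjusted p = 0.808) and by 0.00828 points between 30 and 15 min (adjusted p = 0.626) in exact permutation tests. In transcripts with a boundary in all 27 samples the difference between 5 and 15 min was -0.00582 points and did not pass (exact permutation, adjusted p = 1). Without slow/slow 30 min replicate 2 the differences were 0.0111 points for slow/slow against WT/WT and 0.00809 for 30 against 15 min.

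The median position of boundaries above 2.5 kb was 5.6, 5.1 and 6.2 kb from the start in WT/WT replicates, 5.6, 6.5 and 6.3 kb in WT/slow and 7.3, 8.5 and 7.6 kb in slow/slow replicates at 5 min. Every slow/slow sample lay above every WT/WT sample (7.80 ± 0.625 against 5.63 ± 0.551 kb, SD, n = 3, exact permutation p = 0.1, the smallest possible). At 15 min the group means were 4.27 kb in WT/WT and 4.40 kb in slow/slow cells, and the replicates overlapped. The set of transcripts that enter this median differs between samples, since it depends on which of them had such a boundary.

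**Figure D2:**
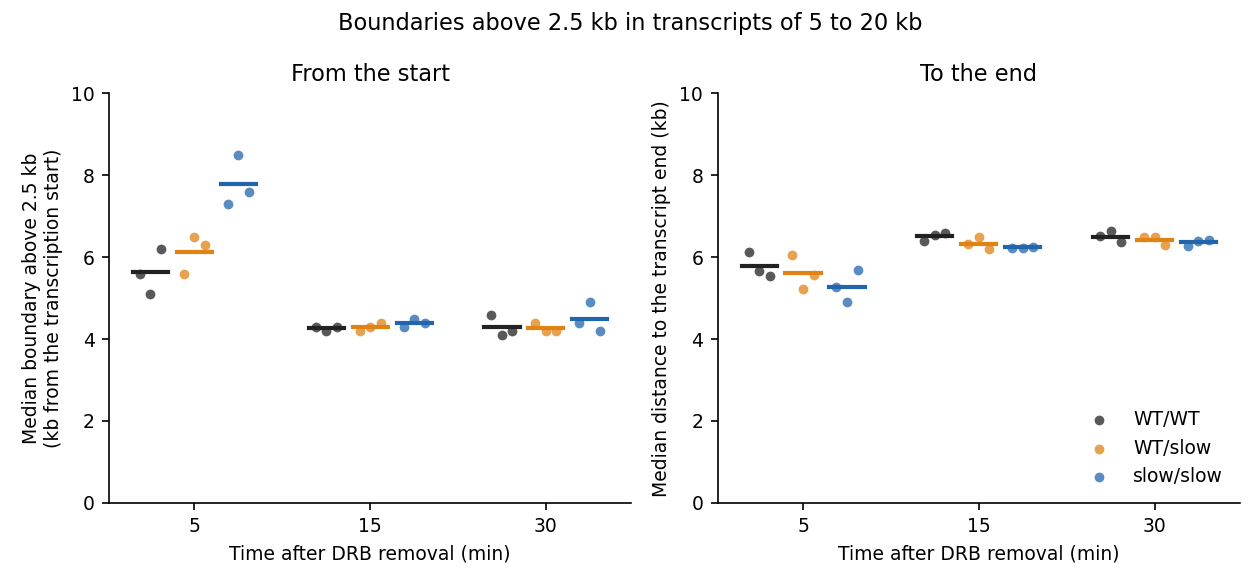
Left, the median boundary above 2.5 kb (kb from the transcript start), and right, the median distance of those boundaries to the transcript end (kb), by genotype and time; points are replicates and bars the means of 3. At 5 min the slow/slow samples lie at 7.3 to 8.5 kb from the start, above the WT/WT samples at 5.1 to 6.2 kb.

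Split by length into 17616 transcripts of 5 to 10 kb, 10318 of 10 to 15 kb and 6852 of 15 to 20 kb, a division chosen after the data were seen, the genotypes were compared within each class. At 5 min a boundary was found in 44.5%, 47.5% and 37.9% of the 5 to 10 kb transcripts in WT/WT and in 36.4%, 23.9% and 26.9% in slow/slow replicates. For 10 to 15 kb the shares were 59.1%, 54.7% and 51.6% in WT/WT and 45.9%, 51.0% and 49.3% in slow/slow replicates. For 15 to 20 kb they were 71.9%, 55.8% and 66.8% in WT/WT and 67.9%, 70.8% and 72.9% in slow/slow replicates. Slow/slow samples lay below all WT/WT samples in both shorter classes and overlapped with them in the longest.

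The differences were -14.3, -6.44 and 5.70 points in the order of length, with exact permutation p of 0.1, 0.1 and 0.4, where 0.1 is the smallest possible. The value in the longest class rests on single WT/WT samples, with 1.19 points without WT/WT 5 min replicate 2 and 9.21 points without replicate 1, and whether the differences themselves differ between classes was not tested. The share at 2.5 kb in WT/WT cells at 5 min went down with length, from 69.3% to 45.5% and 31.3% of boundaries.

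In the longest class, 15 to 20 kb, the slow/slow difference had one sign at 5 min and the other at 15 min. A boundary above 2.5 kb was present at 5 min in 54.0%, 57.1% and 57.9% of these transcripts in slow/slow and in 50%, 32.3% and 50.8% in WT/WT replicates. At 15 min it was present in 22.9%, 20.9% and 23.1% in slow/slow and in 27.2%, 24.3% and 30% in WT/WT replicates. All slow/slow samples were thus higher at 5 min and lower at 15 min, by 12 and -4.86 points. WT/slow replicates, at 46.2%, 40.3% and 48.1%, overlapped with WT/WT at 5 min and at 15 min, at 23.1%, 23.7% and 22%, lay below all of them as well (exact permutation p = 0.1, the smallest possible). Without WT/WT 15 min replicate 3 their difference at 15 min was -2.81 in place of -4.22 points. The value at 5 min rests in part on WT/WT replicate 2, and without it the difference was 5.95 points and its change between the times 10.8 points. With all samples the change of the difference was 16.9 points, with an exact permutation p of 0.005, the smallest that 400 arrangements give, and an adjusted p of 0.06 over 24 tests, which does not pass the threshold of 0.05. In transcripts of 10 to 15 kb the difference was 3.08 points at 5 min, where the genotypes overlapped, and -5.04 at 15 min, a change of 8.12 points (exact permutation, adjusted p = 0.291). The 3.08 points rest on single samples, with 0.425 and 4.72 points without WT/WT 5 min replicate 2 and 1, and 0.670 and 5.87 points without slow/slow 5 min replicate 2 and 1. In transcripts of 5 to 10 kb the difference had the same sign at both times, -2.94 points at 5 min and -2.32 at 15 min.

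At 5 min, of the boundaries of these transcripts, 19.4% ± 0.641 lay at 2.5 kb in slow/slow and 31.3% ± 9.05 in WT/WT cells (SD, n = 3), and at 15 min 69.6% ± 1.11 and 64.5% ± 4.07. The differences were -11.9 and 5.12 points, or -7.03 points at 5 min without WT/WT 5 min replicate 2 and 3.04 points at 15 min without WT/WT 15 min replicate 3. For 10 to 15 kb they were -13.3 and 5.98 points, a change of -19.2 points (exact permutation, adjusted p = 0.08), and without WT/WT 5 min replicate 2 the value at 5 min was -8.58 points. Boundaries above 2.5 kb had medians of 10.7, 10.6 and 9.3 kb in slow/slow and 8.3, 8.8 and 9.5 kb in WT/WT replicates of the 15 to 20 kb class at 5 min, which overlapped (exact permutation p = 0.2). At 15 min the medians were 5.8, 6.8 and 6.4 kb and 5.7, 5.2 and 5.6 kb, without overlap (exact permutation p = 0.1, the smallest possible). In the class of 10 to 15 kb the medians averaged 7.83 kb in slow/slow and 5.87 kb in WT/WT cells at 5 min (exact permutation p = 0.1, the smallest possible). In the class of 5 to 10 kb they were nearly level, at 3.9 and 3.70 kb.

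**Figure D3:**
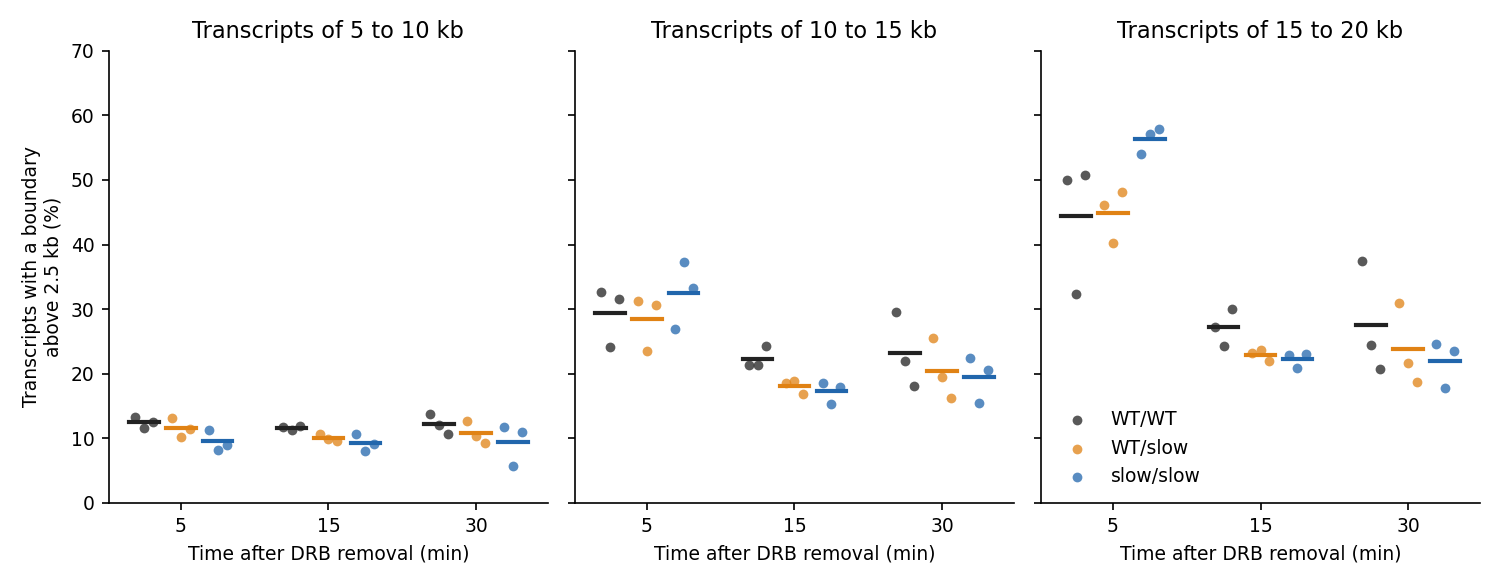
Share of transcripts with a boundary above 2.5 kb (%) in the classes of 5 to 10, 10 to 15 and 15 to 20 kb, by genotype and time; points are replicates and bars the means of 3. In the longest class slow/slow samples lie at 54.0% to 57.9% at 5 min, above WT/WT, and at 20.9% to 23.1% at 15 min, below WT/WT.

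**Figure D4:**
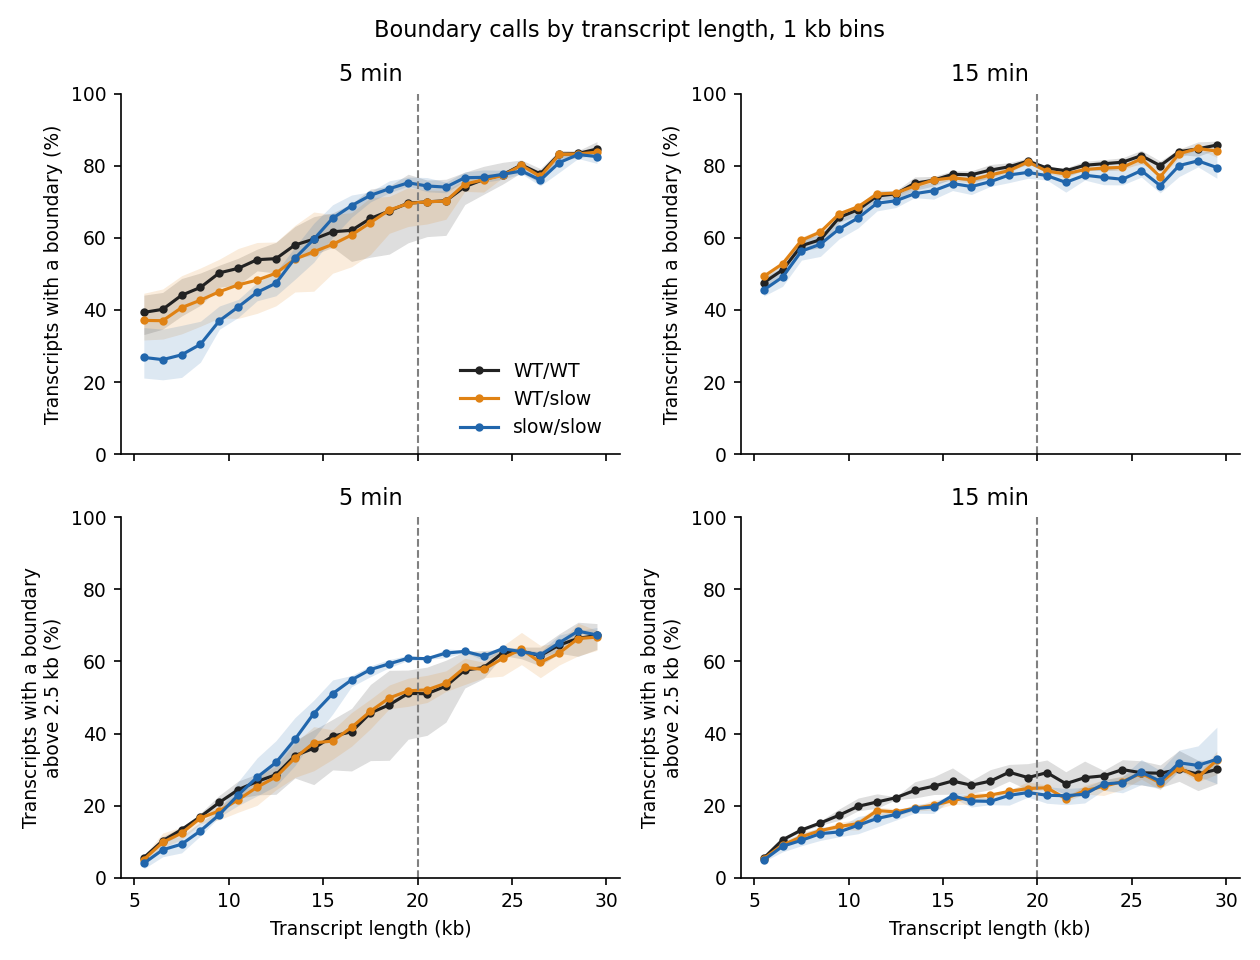
Share of transcripts with a boundary (top, %) and with a boundary above 2.5 kb (bottom, %) against transcript length in bins of 1 kb from 5 to 30 kb, at 5 and 15 min; lines are means of 3 replicates, bands run from the lowest to the highest and the dashed line marks 20 kb. The slow/slow line lies below WT/WT in the shortest transcripts at 5 min, with means of 29.1% and 43.3% over 5 to 10 kb.

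Short transcripts differed from longer ones in every sample. Averaged over 27 samples, 58.2% of short transcripts had a boundary, against 79.0% of the 9307 transcripts of 20 to 30 kb and 84.9% of the 11913 of 30 to 60 kb. The share was lower in 27 of 27 samples than in either class, by -20.8 ± 7.4 points and -26.7 ± 8.51 points (SD, n = 27; sign-flip permutation p = 1e-05, the smallest that 100000 resamples can give). Of the boundaries, 64.6% lay at 2.5 kb in short transcripts against 50.8% and 44.6% in the longer classes, higher in 27 of 27 samples (13.9 and 20.1 points, permutation p = 1e-05 for both, again the smallest possible). These tests treat the 27 samples as independent, although they are 9 groups of 3 replicates that read the same transcripts. Their p-values therefore overstate the replication.

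The gap in the share with a boundary was widest at 5 min. Then 47.3% of short transcripts had a boundary, against 77.2% and 84.8% of the longer classes, and 46.9% of boundaries lay at 2.5 kb against 20.2% and 19.9%. At 15 min the shares at 2.5 kb were 74.5%, 64.3% and 44.2%, and at 30 min 72.5%, 67.7% and 69.6%, so that in this measure the gap to the class of 30 to 60 kb was widest at 15 min and the classes were nearly alike at 30 min.

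Single transcripts could be compared where a boundary was present in all 27 samples. Of the 34786 short transcripts, 1835 met this and varied, and were fitted with limma together with longer transcripts, 21487 in all, with p-values adjusted over all 21487. The others were not tested in this way, and the fitted ones are long for their class, so counts over them do not describe all short transcripts. Genes are named below by their longest short transcript.

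At 5 min, boundaries of single short transcripts mostly lay farther inside in slow/slow cells where the genotypes differed. Of the 1835 short transcripts fitted, 22 were higher (1.20%, against 0.168% of all 21487) and 1 was lower (0.0545%, against 0.303% of all) at an adjusted p under 0.05 with limma, and 234 had an unadjusted p under 0.05. The median difference was 0.0667 kb over the short transcripts fitted and -1.50 kb over all transcripts fitted. Counted once per gene, 11 genes were higher and 1 lower, and in all 12 the replicates of the genotypes did not overlap.

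Gaa, the lysosomal alpha-glucosidase that breaks down glycogen (ENSMUST00000106259, chr11:119267887-119285454, 17.6 kb), had boundaries of 14.8, 10.5 and 11.5 kb in slow/slow and 3.4, 2.7 and 4.3 kb in WT/WT replicates at 5 min. WT/slow replicates were at 6.9, 3.1 and 8.6 kb, 1 of them within the WT/WT range. Every slow/slow boundary was beyond every other one at this time, and at 15 min both homozygous genotypes were at 2.5 kb in all replicates. The rise was 8.80 kb (SE 1.37, limma adjusted p = 0.00545).

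Trim6, a ubiquitin ligase of the TRIM family (16.4 kb), had boundaries of 14.9, 12.3 and 13.9 kb in slow/slow, 10.7, 13.7 and 11.7 kb in WT/slow and 7.5, 2.8 and 7.1 kb in WT/WT replicates at 5 min. Both genotypes that carry the mutation lay above WT/WT, and slow/slow exceeded WT/WT by 7.90 kb (SE 1.23, limma adjusted p = 0.00545). Cndp2, a cytosolic dipeptidase (18.2 kb), lay at 15.7, 9.9 and 13.6 kb in slow/slow and at 2.5 kb in all WT/WT replicates, a rise of 10.6 kb (SE 2.24, limma adjusted p = 0.036). Cdc14a, a dual-specificity phosphatase (19.8 kb), was the gene in the other direction, with 9.2, 2.6 and 2.5 kb in slow/slow and 11.2, 14.0 and 15.5 kb in WT/WT replicates, a difference of -8.80 kb (SE 1.94, limma adjusted p = 0.0453).

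These calls depend on single replicates, and without replicate 2 or 3 of every group 1 and 3 short transcripts were called in place of 23. With limma, Gaa was not past the threshold without replicate 1 (adjusted p = 0.0689) or 3 (0.0710), Trim6 without replicate 2 (0.0740) or 3 (0.115), Cndp2 without replicate 1 (0.180), 2 (0.292) or 3 (0.0661), and Cdc14a without replicate 2 (0.416) or 3 (0.588) of every group or without slow/slow 30 min replicate 2 (0.0573). On the log2 scale Trim6 (limma adjusted p = 0.0505) and Cdc14a (0.153) did not pass. Nor did Cdc14a pass in a limma fit with the replicate number as a block.

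At 15 min boundaries of single short transcripts differed in both directions between slow/slow and WT/WT cells. With limma, 26 were higher in slow/slow cells (1.42%, against 11.4% of all) and 13 lower (0.708%, against 2.01%), with 123 at an unadjusted p under 0.05. The median difference was 0 kb over the short transcripts fitted and 0.6 kb over all. By gene, 15 were higher and 9 lower, of which 14 and 8 had replicates that did not overlap.

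Crebl2, shown above by sequence, had 15 min boundaries of 12.4, 13.3 and 18.3 kb in slow/slow replicates, 2.5, 12 and 2.5 kb in WT/slow replicates and 2.5 kb in all WT/WT replicates. At 5 min it lay inside the gene in every sample, at 5.9, 10.5 and 7.0 kb in WT/WT and 12.2, 8.3 and 9.8 kb in slow/slow replicates, so that only the slow/slow samples still had a boundary far inside at 15 min in all replicates. The rise at 15 min was 12.2 kb (SE 2.20, limma adjusted p = 0.000572).

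Cd9, a tetraspanin of the cell surface, had 15 min boundaries of 14.8, 13.9 and 9.8 kb in slow/slow, 9.5, 11.9 and 12 kb in WT/slow and 2.5 kb in all WT/WT replicates. Slow/slow exceeded WT/WT by 10.3 kb (SE 1.82, limma adjusted p = 0.000456), and unlike Crebl2 most boundaries at 5 min lay at 2.5 kb. The pseudogene Gm6483 had 11.3, 13.8 and 14.3 kb in slow/slow and 2.5, 2.5 and 5.4 kb in WT/WT replicates, a rise of 9.67 kb (SE 2.14, limma adjusted p = 0.00387). Reads of a pseudogene may be shared with related copies, which the boundaries do not show.

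In the other direction, 1700010I14Rik lay at 12.4, 13.4 and 12.5 kb in WT/WT and at 2.5 kb in all WT/slow and slow/slow replicates at 15 min. The difference was -10.3 kb (SE 1.96, limma adjusted p = 0.00099), and WT/WT boundaries were far inside at 5 min as well, at 13.3, 12.5 and 10.1 kb. Cutal lay at 12.1, 11.5 and 12.6 kb in WT/WT and 2.5, 2.5 and 4.8 kb in slow/slow replicates at 15 min, and at 12.7, 13.0 and 10.8 kb and 2.5, 2.6 and 2.5 kb at 30 min. WT/WT boundaries of both genes were thus inside the gene at 5 and 15 min, and those of Cutal in every WT/WT sample.

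For Cutal the differences were -8.80 kb at 15 min (SE 2.32, limma adjusted p = 0.0138) and -9.63 kb at 30 min (SE 2.32, limma adjusted p = 0.0499). Pla2g10, a secreted phospholipase A2, had 8.0, 10.3 and 14.1 kb in WT/WT and 2.5, 2.9 and 2.5 kb in slow/slow replicates at 15 min, a difference of -8.17 kb (SE 2.13, limma adjusted p = 0.0129). Its WT/slow replicates, at 9.0, 8.9 and 7.7 kb, overlapped with WT/WT and lay above slow/slow.

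Without slow/slow 30 min replicate 2 limma called 29 short transcripts at 5 min and 35 at 15 min. Without replicate 2 of every group it called 9 short transcripts at 15 min in place of 39, and without replicate 3 it called 19. Crebl2 was not past the threshold without replicate 3 (adjusted p = 0.0519), Gm6483 without replicate 2 (0.15), Cutal without replicate 2 (0.163) or 3 (0.0775) and Pla2g10 without replicate 2 (0.113) or 3 (0.251).

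At 30 min 5 short transcripts were higher (0.272%, against 0.773% of all) and 5 lower (0.272%, against 0.247%) in slow/slow cells with limma, and 89 had an unadjusted p under 0.05. By gene, 1 was higher and 3 were lower, with no overlap of replicates. Tars2, the mitochondrial threonyl-tRNA synthetase, was higher, at 8.2, 9.0 and 9.8 kb in slow/slow and 2.5, 3.0 and 3.8 kb in WT/WT replicates, a rise of 5.90 kb (SE 1.32, limma adjusted p = 0.03). It was also inside the gene in slow/slow cells at the earlier times, at 8.2, 8.4 and 11 kb at 5 min and 7.5, 7.7 and 7.9 kb at 15 min, while WT/slow replicates lay between 2.5 and 5.7 kb. All 9 slow/slow samples of Tars2 thus lay above all samples of the other genotypes.

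Ppp2r1b, a scaffold subunit of protein phosphatase 2A, lay at 8.6, 14.3 and 8.3 kb in WT/WT replicates at 30 min and at 2.5 kb in all slow/slow replicates, a difference of -7.90 kb (SE 1.24, limma adjusted p = 0.00153). Its boundary was at 2.5 or 2.6 kb in every other sample. AC115631.1 had 11.7, 9.5 and 8.7 kb in WT/WT replicates, 6.7, 7.8 and 7.0 kb in WT/slow and 2.5 kb in all slow/slow replicates, a difference of -7.47 kb (SE 1.35, limma adjusted p = 0.00572). Here the 3 genotypes fell into 3 separate ranges.

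At 30 min limma called 3, 1 and 2 short transcripts without replicate 1, 2 and 3 of every group. Without slow/slow 30 min replicate 2, it called 6 short transcripts in place of 10, and Tars2 (adjusted p = 0.0733) and Cutal (0.114) were not among them. Without replicate 1, 2 or 3 of every group, the limma adjusted p was 0.154, 0.385 and 0.393 for Tars2, 0.124, 0.538 and 0.311 for Cutal and 0.0548, 0.0882 and 0.0570 for Ppp2r1b. AC115631.1 was not past the threshold without replicate 1 (0.237) or 2 (0.185). Nor did Tars2 pass on the log2 scale (limma adjusted p = 0.0578) or Cutal with 1 transcript per gene (0.0780).

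**Figure D5:**
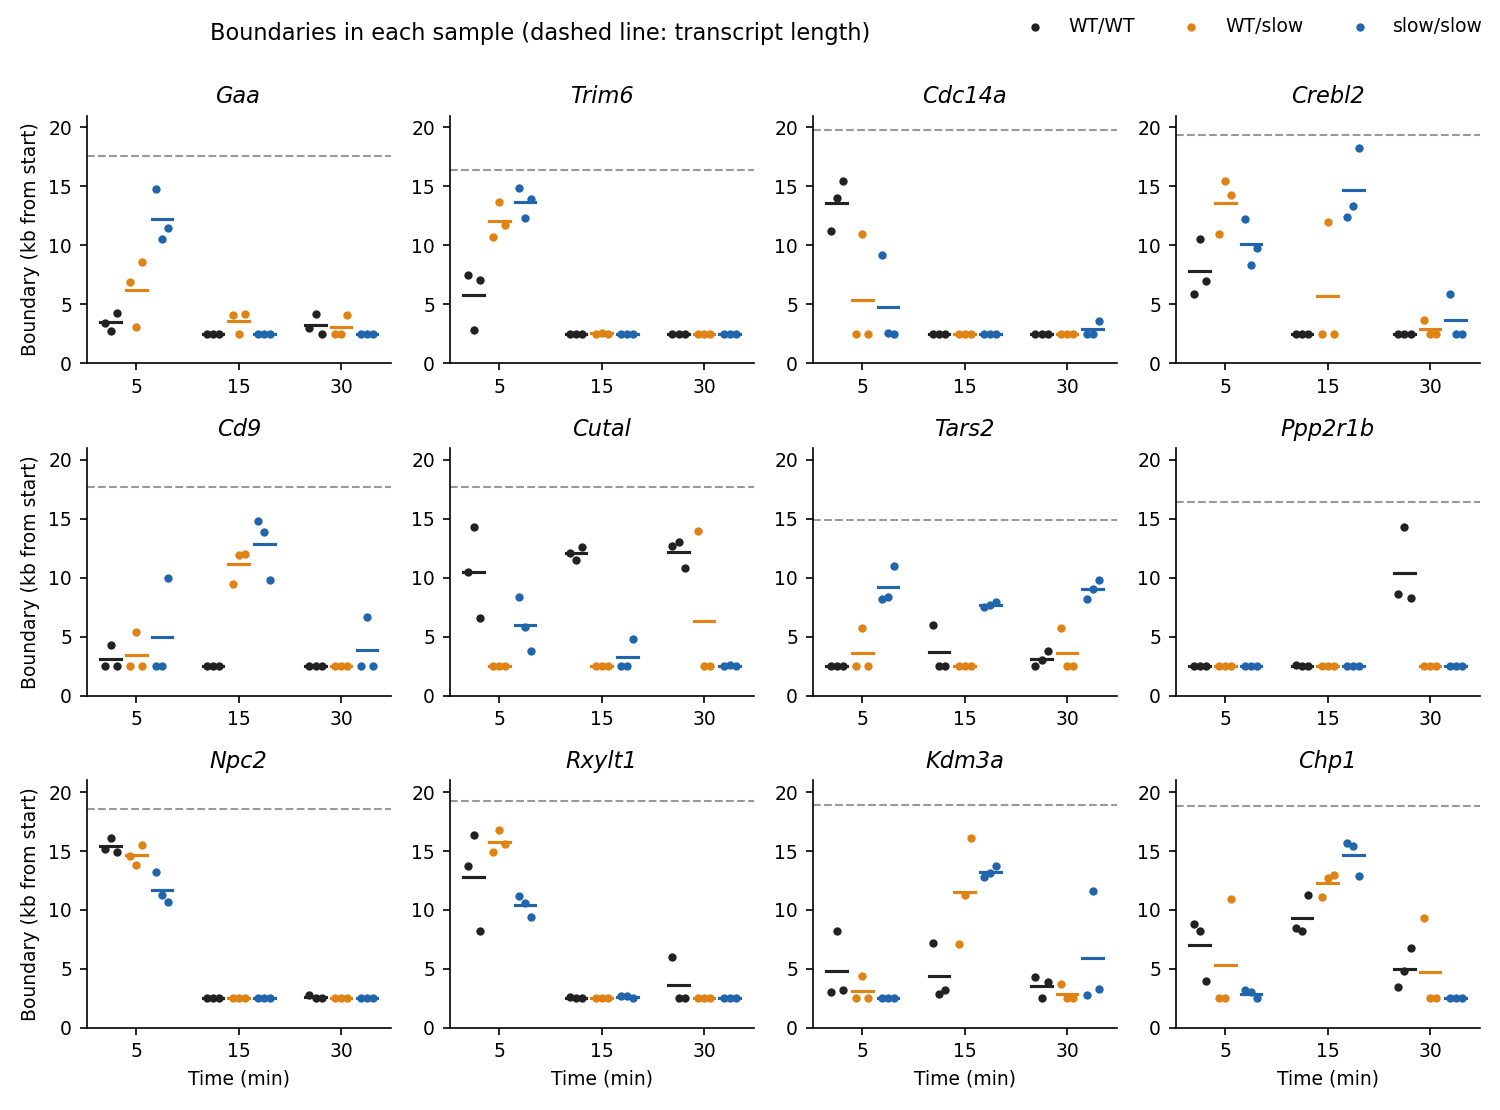
Boundary (kb from the transcript start) in each sample for 12 short transcripts, by genotype and time; points are replicates, short bars group means and the dashed line the transcript length. Npc2 is at 10.7 to 16.1 kb at 5 min and near 2.5 kb later in every genotype, while Tars2 is at 7.5 kb or beyond in slow/slow cells only.

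From 5 to 15 min most short transcripts that changed had a boundary closer to the start at 15 min than at 5 min. The comparisons share their samples with those between genotypes. In WT/WT cells, limma called 178 falls (9.70%, against 11.2% of all) and 11 rises (0.599%, against 4.99%). In WT/slow cells there were 201 falls (11%, against 9.99%) and 13 rises (0.708%, against 8.49%). In slow/slow cells there were 353 falls (19.2%, against 7.73%) and 32 rises (1.74%, against 13.6%). Whether these shares differ between short transcripts and all transcripts was not tested.

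The median change was -0.400 kb for WT/WT cells, -0.6 kb for WT/slow cells and -0.867 kb for slow/slow cells in short transcripts, and -0.433, 0.533 and 3.43 kb over all transcripts fitted. At an unadjusted p under 0.05, limma gave 335, 369 and 566 short transcripts. Whether the counts differ between genotypes was not tested. Without replicate 2 of every group, 82, 83 and 136 short transcripts were called in place of 189, 214 and 385, and without replicate 3 there were 93, 95 and 208.

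Npc2, a lysosomal protein that binds cholesterol (ENSMUST00000021668, chr12:84754560-84773112, 18.6 kb), shows the more frequent direction. At 5 min its boundary lay at 15.2, 16.1 and 14.9 kb in WT/WT replicates, 14.6, 13.8 and 15.5 kb in WT/slow and 13.2, 11.3 and 10.7 kb in slow/slow replicates. At 15 min it was 2.5 kb in all 9 samples, and the change in WT/WT cells was -12.9 kb (SE 0.979, limma adjusted p = 7.29e-08). The slow/slow boundaries at 5 min lay below all others, a difference from WT/WT that limma did not call.

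Adck5 lay at 15.7, 16.7 and 14.6 kb in WT/WT replicates at 5 min and Cflar, which encodes a regulator of caspase-8, at 16.2, 15.8 and 15.2 kb, and both were at 2.5 kb in all of them at 15 min. The change was -13.2 kb for both genes (SE 1.44 and 2.60, limma adjusted p = 3e-06 and 0.00131). Among WT/slow cells the largest falls were those of Rxylt1, a glycosyltransferase that modifies dystroglycan, Nucb1, a calcium-binding Golgi protein, and Phip. At 5 min Rxylt1 lay at 14.9, 16.8 and 15.6 kb, Nucb1 at 18, 15.4 and 12.4 kb and Phip at 12.6, 16.2 and 16.9 kb, and all 3 were at 2.5 kb at 15 min.

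Their changes in WT/slow cells were -13.3, -12.8 and -12.7 kb (limma adjusted p = 5.66e-06, 0.000209 and 0.0015). In slow/slow cells Mrps5, a mitochondrial ribosomal protein, fell by 12.4 kb from 16.9, 13.6 and 14.3 kb (limma adjusted p = 0.000359). Slc25a36, a mitochondrial nucleotide carrier, fell by 12.2 kb from 14.8, 14.0 and 15.3 kb (limma adjusted p = 0.0107), and Orai2, a calcium channel subunit, fell by 12.2 kb from 13.3, 17.1 and 14.9 kb (limma adjusted p = 0.00173). In these slow/slow replicates the 15 min boundary was 2.5 kb, except for 1 of Orai2 at 3.8 kb.

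Rises were few in each genotype. In WT/WT cells, Gramd1b, which takes part in cholesterol transport, was at 5.7, 2.5 and 2.5 kb at 5 min and 14.2, 12.5 and 9.0 kb at 15 min, a rise of 8.33 kb (SE 2.44, limma adjusted p = 0.0236). St6galnac6, a sialyltransferase, went from 2.5 kb in all WT/WT replicates to 9.0, 9.0 and 10.6 kb, a rise of 7.03 kb (SE 2.07, limma adjusted p = 0.0244). Pkp4, a plakophilin of cell junctions, went from 2.5, 3.4 and 2.7 kb to 12.2, 7.2 and 8.9 kb, a rise of 6.57 kb (SE 2.01, limma adjusted p = 0.0304). In all 3 genes every WT/WT sample at 15 min lay above every one at 5 min.

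Rcbtb1 rose in both genotypes that carry the mutation. Its boundaries were 6.6, 2.5 and 2.5 kb at 5 min and 17.7, 14.9 and 11.3 kb at 15 min in WT/slow, and 2.5 kb in all and then 16.6, 15.3 and 11.2 kb in slow/slow replicates, rises of 10.8 and 11.9 kb (limma adjusted p = 0.00908 and 0.00525). In WT/WT replicates they were 11.6, 3.6 and 6.1 kb and then 13.0, 6.2 and 2.5 kb, which overlap. Whether the change of Rcbtb1 differs between genotypes was not tested.

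Kdm3a rose by 8.37 kb in WT/slow (from 2.5, 4.4 and 2.5 to 7.1, 11.3 and 16.1 kb, limma adjusted p = 0.0118) and by 10.7 kb in slow/slow replicates (from 2.5 kb in all to 12.8, 13.1 and 13.7 kb, limma adjusted p = 0.00232). Chp1, a calcium-binding protein related to calcineurin B, rose by 11.8 kb in slow/slow replicates, from 3.2, 3.0 and 2.5 to 15.7, 15.4 and 12.9 kb (limma adjusted p = 0.00071). Cd9 rose by 7.67 kb in WT/slow cells (limma adjusted p = 0.00518). By 30 min the boundary of Rcbtb1, Kdm3a and Chp1 was at 5.3 kb or below in all samples of WT/slow and slow/slow cells but 2, Chp1 in WT/slow replicate 1 at 9.3 kb and Kdm3a in slow/slow replicate 2 at 11.6 kb.

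Several of these changes also needed all replicates. The limma adjusted p was 0.0955 for Gramd1b without replicate 1 and 0.140 without replicate 3, 0.111 and 0.178 for St6galnac6 without replicate 2 and 3, and 0.231, 0.124 and 0.0521 for Pkp4 without replicate 1, 2 and 3. Without replicate 2 it was 0.159 for Rcbtb1 in WT/slow and 0.101 in slow/slow cells, 0.0526 for Cd9 and 0.0722 for Slc25a36. Without replicate 3 it was 0.291 for Kdm3a in WT/slow cells and 0.128 for Slc25a36.

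Many short transcripts had a boundary in every replicate of 1 genotype and in none of the other. At 5 min 1255 of the 27315 short transcripts with any boundary had one in WT/WT cells only (4.59%, against 2.54% of all 59956 transcripts) and 211 in slow/slow cells only (0.772%, against 0.417%). At 15 min the counts were 774 (2.83%, against 1.76%) and 357 (1.31%, against 0.874%), and at 30 min 709 (2.60%, against 1.91%) and 75 (0.275%, against 0.192%). The last counts rest on the library that stood apart, and without slow/slow 30 min replicate 2 they were 852 (3.12%, against 2.16%) and 418 (1.53%, against 1.11%). Boundaries in WT/WT cells alone were thus more frequent than in slow/slow cells alone at each time. At 5 min the transcripts with a boundary in slow/slow cells alone had a median length of 11.2 kb, and those in WT/WT cells alone 8.27 kb. The order was the reverse later, with 7.83 and 8.74 kb at 15 min and 7.90 and 8.46 kb at 30 min, or 7.97 and 8.31 kb at 30 min without slow/slow replicate 2.

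Vsir, an inhibitory receptor of immune cells, had boundaries of 11.3, 7.5 and 16.9 kb in WT/WT replicates at 5 min and none in slow/slow. Kif1bp, a kinesin-binding protein, had 13.7, 11 and 7.2 kb in slow/slow and 14.5, 12.5 and 15.8 kb in WT/slow replicates at 5 min, none in WT/WT, and 2.5 kb in all WT/WT replicates at 15 min. Both had boundaries in all replicates of both homozygous genotypes at 15 min, with Vsir at 3.9, 4.3 and 15.2 kb in slow/slow and at 2.5 kb in all WT/WT replicates. Mpc2, a mitochondrial pyruvate carrier, had 14.5, 10 and 7.7 kb in slow/slow replicates at 5 min and none in WT/WT.

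In other transcripts 1 genotype had no boundary at any time. Itgad, an integrin alpha subunit, lay between 7.5 and 7.9 kb in 8 of 9 WT/WT samples and at 2.5 kb in 1, and had no slow/slow boundary. Clec4a2, a C-type lectin, had a boundary in the 9 WT/WT samples and in no other sample. Bpifb4 had one in every WT/WT sample, between 2.5 and 2.9 kb, and in no slow/slow sample. Tktl1, a transketolase-like protein, had none in WT/WT and WT/slow cells and 9.7, 11.7 and 7.1 kb in slow/slow replicates at 5 min. Adcy4, an adenylate cyclase, had boundaries in slow/slow samples alone, at 4.5, 2.9 and 2.5 kb at 30 min.

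The lncRNA gene 4933413J09Rik, Ptprd, a receptor tyrosine phosphatase, and Pla2r1, a phospholipase A2 receptor, had no boundary in any WT/WT sample. At 15 min their slow/slow boundaries lay at 4.0, 3.8 and 2.5 kb, at 5.0, 4.9 and 5.0 kb and at 10.5, 2.5 and 10.5 kb. Prex2, an exchange factor for Rac, was the reverse case at 30 min, with 6.0, 7.3 and 2.5 kb in WT/WT and none in slow/slow replicates. A missing boundary does not show that a gene was silent, and whether expression differed between the lines was not tested.

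Gene groups were described by the longest short transcript of each gene, beside the same over all 15917 genes, of which 47.5% had a boundary per WT/WT sample at 5 min and 43.0% per slow/slow sample. At 15 min these shares were 58.4% and 56.1%. The median gene had a boundary in 19 samples. Of the 12 groups, 11 had a higher median than this, and markers of other cell types a lower one.

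Of 39 RNAPII subunits and elongation factors, 26 have a short transcript, all with a boundary, in a median of 24 samples. A boundary was present in 78.2% per WT/WT and 60.3% per slow/slow sample at 5 min and in 92.3% and 91.0% at 15 min. Of the boundaries at 5 min, 23.4% lay at 2.5 kb in slow/slow cells, against 35.7% over all genes, and 59.0% in WT/WT cells, against 47.5%. This was not particular to the group, as the shares were 29.4% and 63.4% in splicing factors and 14.3% and 36.4% in chaperones. In cytosolic ribosomal proteins they were 57.1% and 63.6%. Differences between groups were not tested. Cdk9, the kinase of P-TEFb that DRB inhibits (5.35 kb), had its boundary at 2.5 kb in all 25 samples that had one.

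Supt6, a histone chaperone that travels with RNAPII, was the only gene of this group in the limma fit. It lay at 10.4, 12.3 and 9.8 kb in slow/slow, 9.8, 11.3 and 10.6 kb in WT/slow and 2.5 kb in all WT/WT replicates at 15 min, with slow/slow 8.33 kb higher (limma adjusted p = 0.00369). From 5 to 15 min it rose by 6.67 kb in WT/slow and 6.83 kb in slow/slow cells (limma adjusted p = 0.0145 and 0.0129). Of all 1026 genes fitted, limma called 1.46% higher in slow/slow cells at 15 min, and 0.975% and 2.05% rose from 5 to 15 min in those 2 genotypes. Supt6 was not past the threshold at 15 min without replicate 2 of every group (limma adjusted p = 0.107), and without replicate 1 or 2 its rises had a limma adjusted p of 0.0562 and 0.206 in WT/slow and 0.0612 and 0.0784 in slow/slow cells, and of 0.0812 in slow/slow cells without replicate 3.

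Ctr9 lay at 15.2, 2.5 and 16 kb in WT/WT and 14.4, 11.9 and 12.1 kb in slow/slow replicates at 5 min, and at 2.5 kb in all 9 samples at 15 min. Larp7, which holds P-TEFb in the 7SK complex, had 6.0, 2.5 and 15 kb in WT/WT and 13.6, 14.1 and 12.4 kb in slow/slow replicates at 5 min, and Ccnt1, the cyclin of P-TEFb, 10.4, 12 and 9.0 kb in slow/slow replicates. The WT/WT replicates of Ctr9 and Larp7 were spread from 2.5 kb to 15 kb or more, and their slow/slow replicates lay closer together.

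Polr2a itself, at 24.6 kb longer than the transcripts described here, had boundaries of 15.5, 18.5 and 10.3 kb in WT/WT replicates, 12.4, 15.7 and 6.8 kb in WT/slow and 12.9, 7.6 and 6.4 kb in slow/slow replicates at 5 min. The genotypes overlapped. The boundaries do not read the mutated base, so they do not check the genotype labels.

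Of 38 pluripotency and early embryo genes, 23 have a short transcript and all 23 had a boundary, in a median of 21 samples. The share with a boundary was 69.6% per WT/WT and 30.4% per slow/slow sample at 5 min, and 85.5% and 66.7% at 15 min. Zfp42, a marker of naive ESCs, was at 2.5 kb in every WT/WT sample and had no boundary in slow/slow cells at 5 min. Otx2, a homeobox factor of the epiblast, had boundaries in 6 WT/WT samples, between 3.2 and 6.4 kb, and in no WT/slow or slow/slow sample.

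Nanog had a boundary in 6 WT/WT samples, 2 WT/slow samples and 1 slow/slow sample, and Dnmt3l, a cofactor of DNA methylation, in 9 WT/WT samples and in no slow/slow sample. Lin28a, an RNA-binding protein of early cells, was at 2.5 kb in all 9 WT/WT samples. The markers named here were thus called in WT/WT cells, and several of them seldom or never in slow/slow cells. They do not stand for the whole group, where the share at 30 min was 82.6% per WT/WT and 66.7% per slow/slow sample. A call does not by itself mark the cell state, as markers of other cell types had calls too. None of the pluripotency genes was in the limma fit, so the genotype differences within the group were not tested.

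Of 37 markers of other cell types, 19 have a short transcript and 12 of these had any boundary. The median over the 19 genes was 8 samples, against 19 over all genes, a difference that was not tested. The share with a boundary was 22.8% per WT/WT and 17.5% per slow/slow sample at 5 min and 35.1% in both at 15 min. Afp, Alb, Col1a1, Pax6, Acta2, Cdx2 and Sox17 had none. Gata4 had a boundary in 21 samples, Gata1 and Eomes in 19 and Tubb3 in 15, and their part in the results was not tested.

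Genes of protein synthesis and turnover had boundaries in most samples. The translation factors had 47 genes with a short transcript, 46 with a boundary, and a share of 80.1% per WT/WT and 56.0% per slow/slow sample at 5 min. For 14 cytosolic ribosomal proteins the shares were 78.6% and 50%, and for 30 proteasome subunits, 29 with a boundary, 64.4% and 50%. At 15 min the shares in these 3 groups lay between 81.0% and 95.6% in both genotypes.

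Among 8 translation factors fitted with limma, 4 fell from 5 to 15 min in WT/WT, 3 in WT/slow and 5 in slow/slow cells, with median changes of -4.13, -5.83 and -6.07 kb against -0.500, -0.567 and -0.833 kb over all genes fitted. Of all 1026 genes fitted 10.6%, 11.7% and 18.4% fell in the same order. Between genotypes limma called 0 of the 8 at each time, with 2, 0 and 0 at an unadjusted p under 0.05 at 5, 15 and 30 min, and the median differences were 0.25, 0 and 0 kb against 0 kb at each time over all genes. Eif4ebp1, which inhibits the cap-binding protein, lay at 11.3, 11.2 and 13.6 kb in WT/WT and 13.2, 11 and 11.4 kb in slow/slow replicates at 5 min and at 2.5 kb in all of them at 15 min. Its changes were -9.53 kb in WT/WT cells, -6.10 kb in WT/slow cells and -9.37 kb in slow/slow cells (limma adjusted p = 0.000768, 0.02 and 0.00104).

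Eif4g1, a scaffold of the same complex, changed by -7.30, -9.37 and -7.37 kb in the same order (limma adjusted p = 0.0475, 0.0104 and 0.0386). Eif4h changed by -9.73 kb in WT/WT and -10.1 kb in slow/slow cells (limma adjusted p = 0.0157 and 0.0111). Eif4g2 and Eef1g were named after their values were seen. Eif4g2 changed by -4.03, -5.57 and -5.5 kb in the 3 genotypes (limma adjusted p = 0.0119, 0.000806 and 0.0012) and Eef1g by -5.07 kb in slow/slow cells (limma adjusted p = 0.0107). Leaving out replicate 2 or 3 of every group ended most of these calls. Without replicate 2 the limma adjusted p was 0.0512, 0.288 and 0.0526 for Eif4ebp1 and 0.237, 0.263 and 0.304 for Eif4g1 in the same order of genotypes, 0.192 and 0.0808 for Eif4h in WT/WT and slow/slow cells, 0.0724 for Eif4g2 in WT/WT cells and 0.145 for Eef1g. Without replicate 3 it was 0.359 for Eif4ebp1 in WT/slow cells, 0.455, 0.187 and 0.116 for Eif4g1, 0.226 and 0.114 for Eif4h, 0.187 and 0.0502 for Eif4g2 in WT/WT and slow/slow cells and 0.1 for Eef1g. Eif4g2 in WT/WT cells was also not past the threshold without replicate 1 (limma adjusted p = 0.0727), nor Eif4g1 in WT/WT cells without slow/slow 30 min replicate 2 (limma adjusted p = 0.0557).

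Of the ribosomal proteins 3 were fitted, Rpl3, Rps10 and Rpl24, and limma called 0 of them in each of the 6 comparisons, with 0 at an unadjusted p under 0.05 as well. Their median differences lay between -0.300 and 0.567 kb.

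Splicing factors had 43 genes with a short transcript, all with a boundary, and shares of 72.1% per WT/WT and 52.7% per slow/slow sample at 5 min and of 92.2% and 89.9% at 15 min. Of 4 fitted with limma, Hnrnpd fell from 5 to 15 min in slow/slow cells by 9 kb (from 11.2, 10.8 and 12.5 kb to 2.5 kb in all, adjusted p = 0.00726). It was the 1 call in this group, against 18.4% of all 1026 genes fitted that fell in this comparison, and was not past the threshold without replicate 3 of every group (limma adjusted p = 0.1). The medians of the 4 genes ran from -2.35 kb in that comparison to 0.75 kb between genotypes at 5 min. Chaperones had 16 genes, all with a boundary, and shares of 68.8% and 43.8% at 5 min and 93.8% in both at 15 min.

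Hspa9, the mitochondrial Hsp70, lay at 9.5, 11.8 and 11.8 kb in slow/slow and 2.5, 2.5 and 7.2 kb in WT/WT replicates at 5 min, a rise of 6.97 kb (limma adjusted p = 0.0307). It was at 2.5 kb in all samples later, and fell by 8.53 kb from 5 to 15 min in slow/slow cells (limma adjusted p = 0.000386). Cct3, a subunit of the TRiC chaperonin, changed by -7.43 kb in WT/WT cells from 5 to 15 min and by -8.67 kb in WT/slow cells (limma adjusted p = 0.0199 and 0.0062). It was the other chaperone with a call among 3 fitted, whose medians ran from -3.60 kb in WT/slow cells from 5 to 15 min to 0 kb between genotypes at 15 and 30 min. Of all 1026 genes fitted 1.07% were higher in slow/slow cells at 5 min, and 10.6%, 11.7% and 18.4% fell from 5 to 15 min in WT/WT cells, WT/slow cells and slow/slow cells. Without replicate 1, 2 or 3 of every group the limma adjusted p of Hspa9 at 5 min was 0.0546, 0.671 and 0.0985, and without replicate 2 or 3 that of Cct3 was 0.321 and 0.206 in WT/WT and 0.0698 and 0.217 in WT/slow cells. On the log2 scale Hspa9 did not pass at 5 min either (limma adjusted p = 0.0871).

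The respiratory chain list, which includes assembly factors, had 53 genes with a short transcript, all with a boundary, and shares of 79.2% per WT/WT and 44.7% per slow/slow sample at 5 min and of 93.7% and 95.6% at 15 min. No respiratory, proteasome, immediate early or p53 response gene was in the limma fit. In 8 immediate early and p53 response genes the shares were 54.2% and 37.5% at 5 min. Sesn2, a stress response gene, had 14.8 and 12.9 kb in 2 WT/WT replicates, no call in the other, and 13.6, 13.0 and 11.1 kb in slow/slow replicates at 5 min.

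Glycolysis and the cell cycle did not have a lower share in slow/slow cells at 5 min. In 11 glycolysis genes, all with a boundary, it was 42.4% per WT/WT and 69.7% per slow/slow sample, and 84.8% and 100% at 15 min. In 25 cell cycle genes, 24 with a boundary, it was 44.0% in both at 5 min and 89.3% in both at 15 min. Aldoa, the aldolase of glycolysis, lay at 5.7, 8.1 and 6.3 kb in WT/WT and at 2.5 kb in all slow/slow replicates at 5 min, a difference of -4.20 kb that limma did not call (adjusted p = 0.495), and it was the 1 gene of its group fitted. Mcm7, a subunit of the replicative helicase, was the 1 cell cycle gene fitted, with limma adjusted p of 1 in each comparison and median differences of 0 kb except 0.333 kb at 30 min. Ccnb2, a mitotic cyclin, had 11.3, 11.5 and 11.9 kb in slow/slow replicates and 2.5 kb, no call and 3.9 kb in WT/WT replicates at 5 min.

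What short transcripts share at their boundary was read from the genome. Of boundaries above 2.5 kb, between 7.95% and 9.55% lay in an exon of their transcript by group. In the same transcripts exons make up 10.1% to 11.4% of the bases from 2.5 kb after the start to 1 kb before the end. The GC content of the 100-base step at such a boundary differed from that of this same stretch of its transcript by -0.232 to -0.0533 points in the group means. At the step that ends at 2.5 kb, GC content was between 45.5% and 46.2% by group where the boundary lay there, between 45.4% and 46.1% where it lay above 2.5 kb and between 43.9% and 44.7% where no boundary was called.

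A last feature is the place of these transcripts among longer forms. Of the matched short transcripts, 12254 (35.5%) belong to genes that also have a transcript of 20 kb or more, and 22281 transcripts of 10504 genes do not. Over the latter alone, a set chosen after the data were seen, the slow/slow difference in the share with a boundary was -5.96 points (exact permutation, adjusted p = 0.0264) and that in the distance of boundaries above 2.5 kb was -0.283 kb (exact permutation, adjusted p = 0.0314). The library kit keeps strand, but whether reads were assigned by strand is not given in the sources used here, so overlapping and antisense genes may share reads.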

How the data were processed

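Boundaries of the transcription wave-front were taken as deposited, 1 value in bases or no call for each Ensembl transcript in each of 27 libraries. To make them, the authors aligned reads with Bowtie2 2.2.9 (named in the submitters' processing notes) to mm10 (GRCm38), kept uniquely mapped reads outside rRNA, and ran published software on each sample against the average of the 0 min samples. The annotation release, the version of that software and its use of strand are not given in the sources used here. Sources also differ on the DRB block, with 4 h in the labels and 3 h in another passage.

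Transcripts with an end minus start of at least 5000 and under 20000 bases were kept. Genes, types and introns were read from GENCODE M21, and sequences from the GRCm38 genome of RefSeq with samtools 1.23.1. The members and gene lists were chosen with earlier results of these data known. Read depth is unknown, and 3 replicates limit the precision. Replicates are labelled as biological, and nothing more is known here of how far they are separate cultures.

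Shares and medians were computed per sample and compared with two-sided exact permutation tests within times or genotypes (8000 arrangements, Benjamini-Hochberg over 20 tests). Comparisons with longer transcripts used sign-flip permutation over 27 samples (100000 resamples). Single transcripts with a boundary in all 27 samples that varied were fitted with limma 3.58.1 (R 4.3.3) on kb, with 1 mean per group and Benjamini-Hochberg adjustment over all fitted transcripts. The fit was also run on simulated data, and no result of that run is used here. Python 3.11.15 was used with SciPy 1.17.1, NumPy 2.4.6, Matplotlib 3.10.9 and pandas 2.3.3.

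Genes were named by 1 transcript, the longest of the symbol among the short transcripts. From each list up to 4 with a boundary in the most samples were eligible, ties going to the longer, and any RNAPII, elongation or pluripotency gene. From each limma comparison came the 3 largest rises and 3 largest falls whose replicates did not overlap, and from boundaries in 1 genotype only up to 3 per direction and time, the longest first, with Polr2a added. Alternatives were other sets of transcripts, scales, summaries and end windows, a replicate block and each replicate left out. Leaving out slow/slow 30 min replicate 2, keeping genes with no transcript of 20 kb or more, length classes, also with single replicates left out, the effect by time and the alternatives for list genes were chosen after seeing the data. Samples at 0 min or without DRB were not used here.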

Additional observations from a re-analysis of the deposited data

Results flagged for a closer look

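In transcripts of 15 to 20 kb, the slow/slow minus WT/WT difference in the share of boundaries at 2.5 kb changed by -17.0 points, taken as the value at 5 min minus that at 15 min. The corresponding value for the share of transcripts with a boundary above 2.5 kb was 16.9 points. Both stand out because every slow/slow sample lay on one side of every WT/WT sample at 5 min and on the other side at 15 min (exact permutation p = 0.005, the smallest that 400 arrangements give, adjusted p = 0.06). Neither passed the threshold of 0.05 after adjustment, and the length class was chosen after the data were seen. Without WT/WT 5 min replicate 2 the values were -12.2 and 10.8 points. Opposite signs at the 2 times were also found in other classes. The share at 2.5 kb differed by -4.72 and 3.58 points in transcripts of 5 to 10 kb and by -13.3 and 5.98 points in those of 10 to 15 kb, where the change was -19.2 points (exact permutation, adjusted p = 0.08). Without WT/WT 5 min replicate 2 the values at 5 min were -2.30 and -8.58 points. The share above 2.5 kb differed by 3.08 and -5.04 points in those of 10 to 15 kb, and the former was 0.425 points without WT/WT 5 min replicate 2, 4.72 without WT/WT 5 min replicate 1, 0.670 without slow/slow 5 min replicate 2 and 5.87 without slow/slow 5 min replicate 1. In these cases samples of the genotypes overlapped at 5 min. The share above 2.5 kb in transcripts of 5 to 10 kb went the other way and kept 1 sign. It differed by -2.94 points at 5 min and -2.32 at 15 min, with no overlap of replicates at either time.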

How the results depend on the processing

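Of 91 alternatives to differences past the threshold, 79 kept direction and call, 12 lost the call and 0 turned. Most of the differences past the threshold were between 5 and 15 min, and among these only the share within 1 kb of the end lost its call. All other losses fell on the slow/slow differences in the share with a boundary and in the distance above 2.5 kb. The pooled count thus does not describe those slow/slow results. Of 175 alternatives to differences that had not passed, 150 kept both, 2 passed and 23 turned in sign. Where no construction shows it, the cause was not tested. The slow/slow difference in the share with a boundary was -3.82 points over 10 to 20 kb transcripts (exact permutation, adjusted p = 0.197), and for boundaries above 2.5 kb the distance was -0.430 kb over transcripts with a boundary in all 27 samples (adjusted p = 0.0736). In that set the distance differed by 0.148 kb for WT/slow minus WT/WT, by 0.181 kb above 2.5 kb and by -0.0139 kb for 30 minus 15 min, and the share within 1 kb of the end by -0.0116 points for slow/slow minus WT/WT, -0.00582 for 15 minus 5 min, which no longer passed (adjusted p = 1), and -0.0233 for 30 minus 15 min. As a percent of length the distance differed by 0.0510 (WT/slow) and -0.230 (30 minus 15 min). The latter was -0.00756 kb over 10 to 20 kb and -0.0245 kb in genes with no transcript of 20 kb or more, and the share within 1 kb was -0.00280 with 1 transcript per gene. Leaving out slow/slow 30 min replicate 2 turned the 30 minus 15 min share with a boundary to 0.659 points.

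With the replicate block, a paired sign-flip test over 9 pairs (smallest possible p 0.00390625), the slow/slow differences were -6.18 points (exact permutation, adjusted p = 0.0670) and -0.301 kb above 2.5 kb (0.0558), and WT/slow minus WT/WT was -0.137 kb (0.0293). In limma the block kept each count within 1.5 times, and ended 1 of 32 calls named from the comparisons, Cdc14a (adjusted p = 0.0690), and 1 of 20 calls of list genes, Eif4g1 in WT/WT cells (0.0552). Deviations of samples with the same number correlated between 0.0473 and 0.165 for slow/slow against WT/WT, over 0.1 in 3 of 9 pairs. For WT/slow against WT/WT they correlated between 0.0857 and 0.371, over 0.1 in 8 of 9 pairs. Each sample correlated best with its own number in 9 of 9 pairs for both. The data thus hint at pairs by number, more for WT/slow than for slow/slow. The labels do not say what samples of the same number share, so paired and unpaired values are both given.

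With each replicate left out in turn, the share with a boundary ranged from -8.01 to -3.44 points (slow/slow minus WT/WT), -2.05 to 0.199 (WT/slow minus WT/WT), 15.5 to 19.4 (15 minus 5 min) and -3.12 to 0.188 (30 minus 15 min). In the same order the share at 2.5 kb ranged from -3.67 to 0.338, 0.242 to 4.25, 25.6 to 29.0 and -4.04 to 1.01 points. The median distance ranged from -0.102 to 0.0449, -0.0645 to 0.0113, 1.44 to 1.60 and -0.0248 to 0.173 kb, and above 2.5 kb from -0.381 to -0.241, -0.221 to -0.0841, 0.656 to 0.930 and 0.0368 to 0.107 kb. The share within 1 kb ranged from -0.00223 to 0.0301, -0.0198 to 0.00922, -0.124 to -0.0727 and 0.00411 to 0.0166 points.

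The limma counts were 23, 39 and 10 between genotypes at 5, 15 and 30 min and 189, 214 and 385 from 5 to 15 min, for WT/WT, then WT/slow, then slow/slow. Where transcripts needed calls in only 2 of 3 replicates per group, they were 295, 160, 41, 902, 1242 and 1952 of 7716 transcripts, and with 1 transcript per gene 13, 14, 2, 78, 91 and 170 of 696, where more or fewer transcripts were fitted. Leaving out slow/slow 30 min replicate 2 gave 6 at 30 min, and 418 in place of 75 short transcripts with a boundary in slow/slow cells alone. Each replicate left out in turn gave 1 to 27, 9 to 48, 1 to 3, 82 to 170, 83 to 231 and 136 to 264. On the log2 scale 29 of 32 named results passed, without Trim6 (adjusted p = 0.0505), Cdc14a (0.153) and Tars2 (0.0578), and with 1 transcript per gene Cutal at 30 min did not (0.0780). Of the 20 calls of list genes, 19 passed on the log2 scale and 16, 4 and 6 without replicate 1, 2 and 3. Read depth is unknown, so its limits could not be given.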
